A study of Mus musculus with 6 samples.

Results

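The Hox cluster genes are the 39 protein-coding homeobox genes of the mouse HoxA, HoxB, HoxC and HoxD clusters. They were taken as every row whose symbol is Hoxa, Hoxb, Hoxc or Hoxd followed by a number, 39 of 23420 gene symbols. HoxA gave 11 of them, HoxB 10, HoxC 9 and HoxD 9. RNA was sequenced from tooth germs of mouse embryos at E15.5 in 6 libraries, 3 from wild-type mice and 3 from Smad7-/- mice, which lack the inhibitory SMAD of the TGF-beta and BMP pathways. All are of the C57BL/6 strain, and the labels name no treatment, tooth type, litter or sex. No label says that the 3 libraries of a genotype came from separate embryos, nor how many tooth germs were pooled, so every p-value below measures only the spread between these libraries, which may be technical. The labels do not describe the Smad7 allele.

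Hox genes code for transcription factors that bind DNA through a homeodomain and give cells of the body axis their position. They lie in clusters in which the order of the genes follows the order of their expression from head to tail, and genes of the same number in different clusters, called a paralog group, descend from 1 ancestral gene. Neural crest cells that fill the first pharyngeal arch, from which the jaws and the mesenchyme of the teeth form, carry no Hox expression, while crest cells of the second and later arches express Hox genes of the low-numbered groups. The Hox genes were therefore read library by library as a check of that Hox-negative origin. The check bears on the mesenchyme only. These libraries mix it with dental epithelium, and the share of each tissue was not measured.

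In the mm10 build the HoxA cluster genes span chr6:52155590-52260880, HoxB chr11:96194316-96368256, HoxC chr15:102921103-103036852 and HoxD chr2:74668310-74765142. Hoxc13, Hoxd8, Hoxd9 and Hoxb2 were the members with more than 3 counts in every library. The homeobox of Hoxc13, Hoxd8 and Hoxb2, the stretch that codes for the homeodomain, is shown because it is the part of the gene that paralogs share. Each is 180 bases long, lies within 1 exon on the plus strand and is read from the GENCODE M21 transcripts of the same build, 5′ to 3′. Capitals mark the 18 bases of homeodomain codons 48 to 53, in the helix that contacts DNA. The Hoxc13 homeobox lies at chr15:102927210-102927389, that of Hoxd8 at chr2:74706525-74706704 and that of Hoxb2 at chr11:96352985-96353164.
Hoxc13: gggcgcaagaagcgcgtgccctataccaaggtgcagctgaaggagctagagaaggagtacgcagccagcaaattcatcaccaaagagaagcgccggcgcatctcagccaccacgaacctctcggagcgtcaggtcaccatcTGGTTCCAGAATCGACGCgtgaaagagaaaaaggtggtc
Hoxd8: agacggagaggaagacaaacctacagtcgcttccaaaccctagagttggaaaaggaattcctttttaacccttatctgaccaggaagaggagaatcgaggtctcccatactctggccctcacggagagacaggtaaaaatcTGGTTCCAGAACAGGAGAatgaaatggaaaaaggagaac
Hoxb2: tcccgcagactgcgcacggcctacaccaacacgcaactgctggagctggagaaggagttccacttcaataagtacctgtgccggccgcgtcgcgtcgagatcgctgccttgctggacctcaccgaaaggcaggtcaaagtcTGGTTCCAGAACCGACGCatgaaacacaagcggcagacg
The homeobox of Hoxc13 was 77.2% identical to that of Hoxa13, its closest match among the Hox genes, and the longest run of bases it shared with any Hox homeobox was 17. Hoxd8 was 80.6% identical to Hoxb8, with a longest shared run of 21 bases over all Hox homeoboxes. The closest match of Hoxb2 was Hoxd3, at 77.8%, with a shared run of 28 bases. Over the whole transcripts, no 50-base word of Hoxc13, Hoxd8 or Hoxd9 occurred in another gene.

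Few Hox transcripts were found in the tooth germs. Of the 39 genes, 20 (51.3%) had 0 counts in all 6 libraries, against 4415 of all 23420 symbols (18.9%). Counting these, 32 of 39 (82.1%) never exceeded 3 counts in a library. The libraries hold 37591888 to 56575476 counts each, so a gene at 0 in a library may lie at up to 3 counts, which is 0.0520 to 0.0798 CPM (counts scaled to a common library size, with TMM factors). A gene at 0 in all 6 libraries, 287038177 counts together, may lie at up to 0.0104 CPM, and both limits cover counting error only. Even counts were in excess: 638 to 735 genes per library had exactly 2 counts and 233 to 326 had 1 count, so a count of 2 may be a single read pair. If the reads of a pair were counted separately, 3 unseen pairs are 6 counts, and the limits are 0.104 to 0.160 CPM per library and 0.0209 CPM over all 6. Of the Hox values from 1 to 3 counts, 18 were exactly 2, 4 were 1 and 3 were 3.

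The counts were concentrated in single genes and not spread along a cluster. Summed over the libraries, the HoxC cluster had 1141 counts, of which Hoxc13 alone had 1137. HoxD had 450, of which Hoxd8 had 341 and Hoxd9 87. HoxB had 107, of which Hoxb2 had 78, and HoxA, the cluster that holds Hoxa2, had 16. By paralog group, group 13 had 1139 counts, group 8 had 341, group 9 had 96 and group 2 had 78, while groups 11 and 12 had 0. Between Hoxc13 and Hoxc4, Hoxc12, Hoxc11, Hoxc10, Hoxc9, Hoxc8 and Hoxc5 were at 0 in every library and Hoxc6 had 2 counts.

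**Figure D1:**
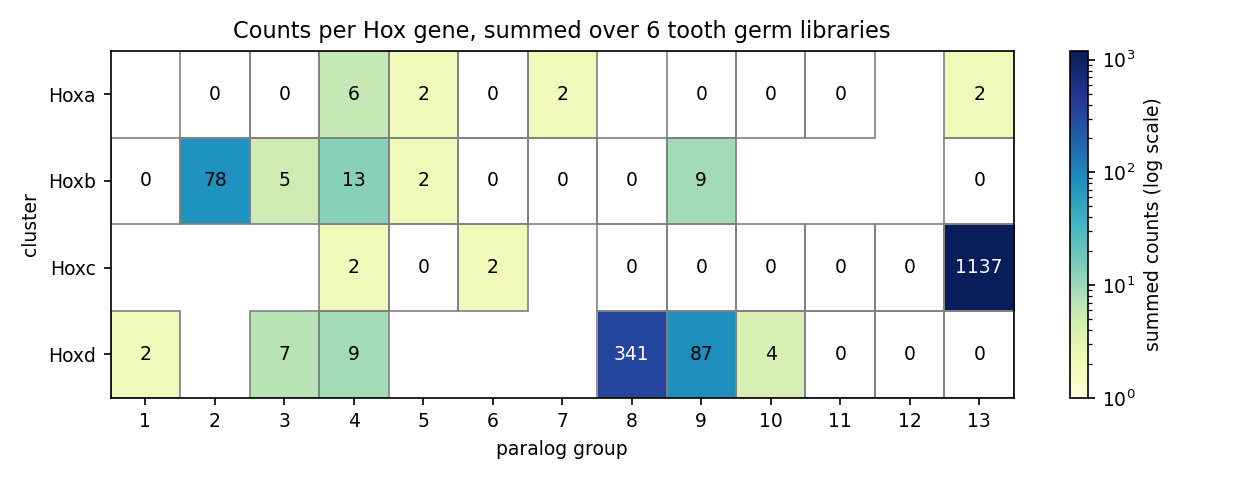
Counts of each Hox gene summed over the 6 libraries, by cluster (vertical) and paralog group (horizontal), with a log colour scale and the count in each cell; blank positions have no gene or one that is not shown, and outlined white cells are at 0. Hoxc13 (1137), Hoxd8 (341), Hoxd9 (87) and Hoxb2 (78) stand apart from the other genes shown, each at 13 or fewer.

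Hox genes of paralog groups 1 to 4, which pattern the hindbrain and the crest of the second and later arches, were at or near 0 apart from Hoxb2. Hoxa2, the gene that gives the second arch its identity, had 0 counts in every library, as did Hoxb1, a hindbrain gene of the segment that feeds that arch, and Hoxa3, which acts in third-arch derivatives such as the thymus and parathyroid. Hoxb3 had 0, 0 and 2 counts in wild type and 1, 0 and 2 in Smad7-/-. Hoxd3 had 3, 0 and 1 against 0, 0 and 3. Hoxa4 had 0, 2 and 2 against 0, 2 and 0, and Hoxc4 and Hoxd1 had 2 counts each in a single library.

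Hoxb2 acts in the hindbrain and the second arch and is known there as a target of the zinc finger factor Egr2. Its counts were 13, 8 and 16 in wild type and 4, 4 and 33 in Smad7-/-. The highest and the lowest values were both Smad7-/- libraries, so the groups overlapped in full. In CPM the means were 0.250 ± 0.0867 (SD, n = 3) and 0.257 ± 0.273 (SD, n = 3). With each read pair taken as 1 event, the Poisson 95% interval of Smad7-/- library 3 was 0.330 to 0.923 CPM and those of Smad7-/- libraries 1 and 2 were 0.0129 to 0.385 and 0.0111 to 0.332 CPM. These intervals meet, and they cover counting error only. Egr2 had 38, 30 and 27 counts in wild type and 17, 12 and 55 in Smad7-/-, so its highest and its 2 lowest libraries were those of Hoxb2. Egr2 also marks myelinating Schwann cells, and the summed Schwann cell markers were 103 CPM in Smad7-/- library 3 within a range of 92.4 to 119 over the libraries. Hoxb2 lies at chr11:96350525-96354012, and 27.3% of its exon bases are shared with the antisense gene Hoxb3os. The library kit does not record the strand, so reads of both cannot be told apart there.

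Hoxc13 was the most abundant Hox gene in each of the 6 libraries. It belongs to the group at the tail end of the cluster, and is known for its role in hair follicles, nails and the papillae of the tongue, where it controls hair keratin genes. Counts were 231, 200 and 166 in wild type and 179, 190 and 171 in Smad7-/-. That is 4.50, 4.04 and 3.48 CPM against 4.76, 4.37 and 2.97 CPM, with means of 4.01 ± 0.516 (SD, n = 3) and 4.03 ± 0.945 (SD, n = 3). Both the highest and the lowest library were Smad7-/-. Of all Hox counts in a library, Hoxc13 made up 53.9% to 75.5%. The gene lies at chr15:102921103-102928814 and shares no exon base with another gene. Its paralogs Hoxb13 and Hoxd13 were at 0 in every library, and Hoxa13, active in limb and genital buds, had 2 counts in 1 library.

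Hoxd8 and Hoxd9 are neighbours in the HoxD cluster, at chr2:74704615-74707933 and chr2:74697727-74700208, and are known for patterning of the trunk, with Hoxd9 also acting in the limb. Hoxd8 had 59, 39 and 85 counts in wild type and 34, 44 and 80 in Smad7-/-, which is 1.15, 0.788 and 1.78 CPM against 0.905, 1.01 and 1.39 CPM. The group means were 1.24 ± 0.502 and 1.10 ± 0.254 CPM (SD, n = 3 each), and wild-type libraries were both the highest and the lowest. Within wild type, with each read pair taken as 1 event, the Poisson 95% intervals were 0.478 to 1.22 CPM in library 2 and 1.29 to 2.40 CPM in library 3. These intervals lie close to each other without meeting. Hoxd9 had 18, 8 and 25 counts in wild type and 9, 11 and 16 in Smad7-/-. Its means were 0.345 ± 0.181 and 0.257 ± 0.0193 CPM (SD, n = 3 each), and all 3 Smad7-/- libraries lay between the lowest and the next wild-type library. Hoxd10 on one side of the pair had 4 counts in all, and Hoxd11, Hoxd12 and Hoxd13 were at 0. Neither gene shares an exon base with another gene.

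**Figure D2:**
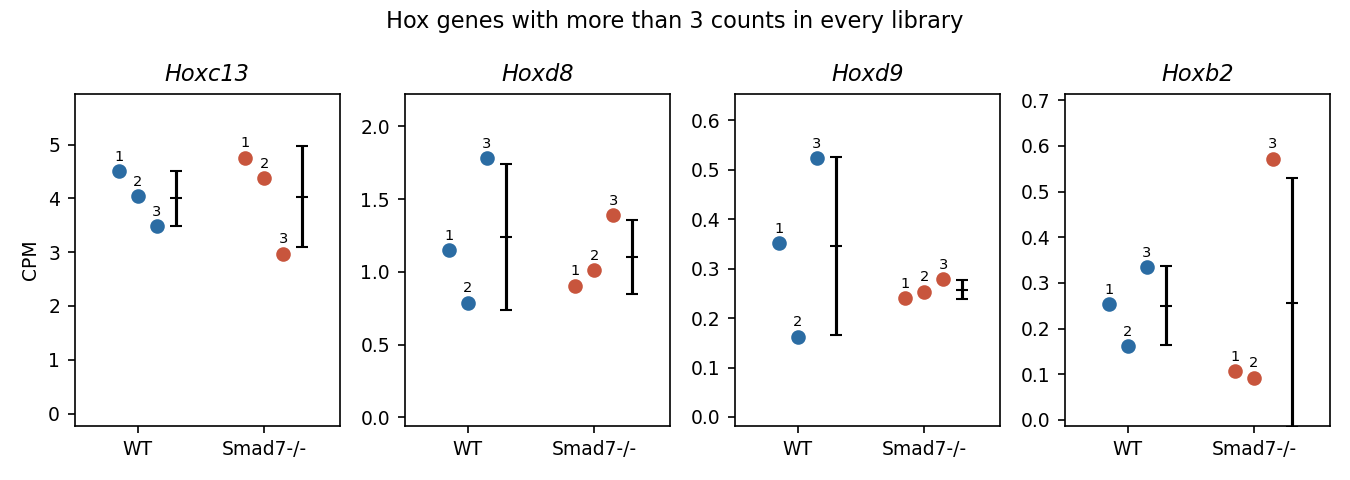
CPM (vertical axis, a separate linear scale for each gene) of the 4 Hox genes with more than 3 counts in every library. Points are libraries, numbered as in the labels, and the bar beside each group is its mean with 1 SD (n = 3): the genotypes overlap in all 4 genes, and library 3 is the highest of its genotype for Hoxd8, Hoxd9 and Hoxb2 and the lowest for Hoxc13.

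A further 3 genes passed 3 counts in at least 1 library, all of them near that floor. Hoxb4, a trunk and blood stem cell gene, had 0, 2 and 1 counts in wild type and 6, 4 and 0 in Smad7-/-. Hoxb9, a thoracic patterning gene, had 0, 4 and 0 against 0, 4 and 1. Hoxd4, a gene of the hindbrain and neck vertebrae, had 0 in each wild-type library and 4, 2 and 3 in the Smad7-/- libraries, so that its groups did not overlap. No fold is given for Hoxd4, since 2 of its 3 Smad7-/- libraries are at or under 3 counts. With no filter on low counts, edgeR gave Hoxd4 an unadjusted p of 0.021 and an adjusted p of 0.878, and DESeq2 gave an unadjusted p of 0.067. In the annotation 52.3% of the Hoxd4 exon bases are shared with Hoxd3, Hoxd3os1 and the gene model Gm28230. Hoxb5, Hoxc6, Hoxa5 and Hoxa7 had 2 counts each, in a single library.

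Per length of exon, Hoxc13 stood near the lowest of the 3 jaw and tooth regulators used as a scale, and the other Hox genes well under them. Msx1, Dlx2 and Pax9 are transcription factors of first-arch and dental mesenchyme, and Msx1 and Dlx2 carry a homeobox, while Pax9 has a paired domain and no homeobox was found in its coding sequence. As CPM divided by the kilobases of merged exon, the mean levels over the 6 libraries were 79.4 for Dlx2, 3.94 for Msx1, 1.72 for Pax9, 1.63 for Hoxc13, 0.427 for Hoxd8, 0.141 for Hoxd9 and 0.0727 for Hoxb2. Hoxc13 ranged from 1.21 to 1.94 over the libraries and Pax9 from 1.28 to 2.45, so these levels overlapped. Hoxd8 (0.287 to 0.649) lay under every Hoxc13 value and above every Hoxd9 value (0.0757 to 0.245), while Hoxd9 and Hoxb2 (0.0264 to 0.164) overlapped. The order of Hoxd9 and Hoxb2 turns when the longest coding transcript sets the length, with 0.141 for Hoxd9 and 0.156 for Hoxb2. On the same scale Hoxc13 stayed at 1.63, and Pax9 was 2.06, Msx1 6.31 and Dlx2 91.7. In this tissue sample, a gene carried by few cells and one with little RNA in many cells cannot be told apart.

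**Figure D3:**
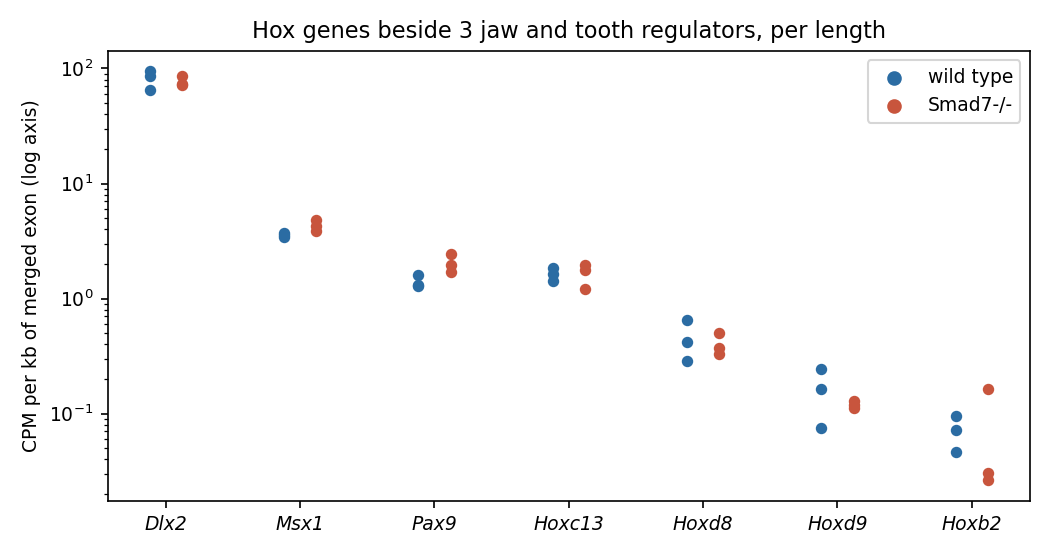
CPM per kilobase of merged exon (log axis) of 3 first-arch and dental regulators and the 4 Hox genes with more than 3 counts in every library; each point is 1 library, blue for wild type and red for Smad7-/-. Hoxc13 (1.21 to 1.94) overlaps Pax9 (1.28 to 2.45), and Hoxd8, Hoxd9 and Hoxb2 lie under every value of the 3 regulators.

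No Hox gene passed the test between the genotypes. The targeted gene was low in the Smad7-/- libraries: Smad7 had 1097, 934 and 859 counts in wild type and 80, 62 and 41 in Smad7-/-, a log2 fold change of -3.80 ± 0.33 (SE) with an adjusted p of 0.00749 in edgeR's quasi-likelihood test. Without Smad7-/- library 2 the adjusted p was 0.0887 and the log2 fold change -3.83. Of 15284 genes tested, edgeR called 4 at an adjusted p under 0.05 (0.0262%), and 0 of the 4 Hox genes that passed the filter on low counts. At an unadjusted p under 0.05 the share was 5.14% of all tested genes, and again 0 of the 4 Hox genes. DESeq2 called 59 of 16816 genes with an adjusted p (0.351%), and 0 of the 5 Hox genes with one. Of the 19 Hox genes to which DESeq2 gave a p, 0 had an unadjusted p under 0.05. In edgeR, 2 of the 4 Hox genes had a positive and 2 a negative log2 fold change, with a median of -0.08, beside a median of -0.003 over all tested genes. The CPM ranges of the genotypes overlapped in all 4, while they did not overlap in 8.89% of tested genes.

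The intervals are a rough guide to how large a difference these libraries could hide, and they may be too narrow. That of Msx1 (0.01 to 0.53) held only positive values, while its unadjusted p in edgeR's quasi-likelihood test was 0.0706. For Hoxc13 the log2 fold change, Smad7-/- over wild type, was 0.00 ± 0.23 (SE), with a nominal 95% interval from -0.44 to 0.45. Hoxd8 gave -0.16 ± 0.36 (SE) with an interval from -0.87 to 0.55, and Hoxd9 gave -0.42 ± 0.50 (SE) with an interval from -1.39 to 0.56. Hoxb2 gave 0.12 ± 0.69 (SE), from -1.22 to 1.47, and its sign rests on Smad7-/- library 3, without which it was -1.31 with an adjusted p of 0.611. The adjusted p was 0.999 for Hoxd9 and 1.00 for the other 3 (edgeR). For comparison, Msx1 gave 0.27 ± 0.13 (SE), Dlx2 -0.09 ± 0.14 (SE) and Pax9 0.55 ± 0.18 (SE), with adjusted p of 0.995, 0.999 and 0.766 in the same test. Summed over all 39 members, the Hox level was 6.32, 5.40 and 6.28 CPM in wild type and 6.31, 6.19 and 5.50 CPM in Smad7-/-, with means of 6.00 ± 0.521 and 6.00 ± 0.436 (SD, n = 3 each). Hoxc13 dominates that sum, and without it the libraries had 1.81, 1.35 and 2.81 against 1.54, 1.82 and 2.53 CPM.

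**Figure D4:**
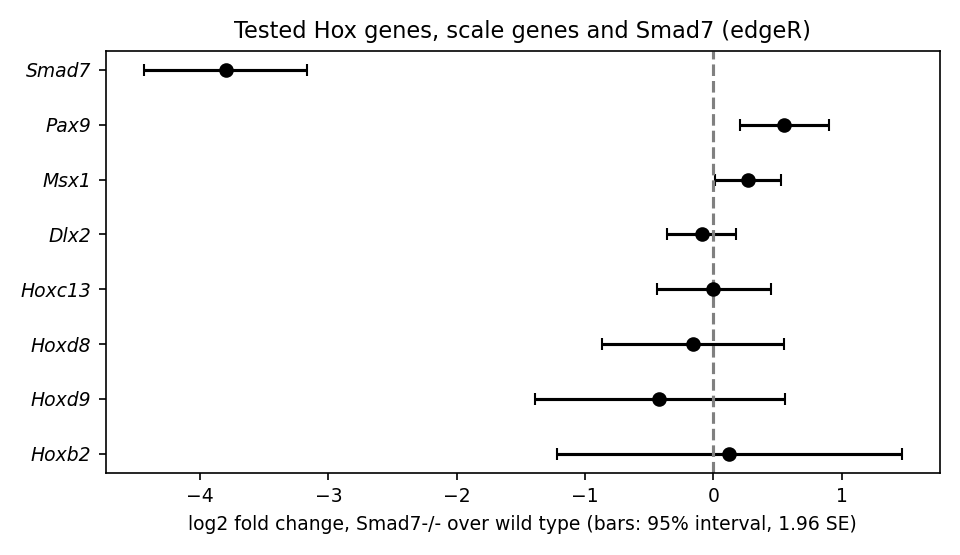
Log2 fold change of Smad7-/- over wild type (horizontal axis, edgeR) for Smad7, the 3 scale genes and the 4 tested Hox genes. Bars are nominal 95% intervals, which may be too narrow. Intervals of the Hox genes all include 0 and widen as the counts fall, from Hoxc13 (-0.44 to 0.45) to Hoxb2 (-1.22 to 1.47).

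The 4 Hox genes did not all peak in the same library. Hoxd8 and Hoxd9 had their highest level in wild-type library 3, Hoxb2 in Smad7-/- library 3 and Hoxc13 in Smad7-/- library 1. Hoxd8 and Hoxb2 had their 2 highest values in library 3 of each genotype, the libraries in which Hoxc13 was lowest. Across all genes, the first principal component (33.5% of the variance) put wild-type library 1 and Smad7-/- libraries 1 and 2 on one side and the other 3 libraries on the other, a division that the genotype labels do not give. Hoxc13 was 4.37 to 4.76 CPM on the first side and 2.97 to 4.04 CPM on the second. Within the first side wild type had 4.50 and Smad7-/- had 4.76 and 4.37 CPM, and within the second wild type had 4.04 and 3.48 and Smad7-/- had 2.97 CPM. Relative to the mean of the 6 libraries, Hoxc13 in Smad7-/- library 3 was at a log2 ratio of -0.44, Hoxd8 at 0.25 and Hoxb2 at 1.17.

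Markers of the tissues that the dissection could hold were read beside these values. Dental epithelium markers (6 of 6 present, among them Krt14 and Krt5) summed to 7310 to 9410 CPM and jaw mesenchyme markers (8 of 8) to 252 to 378 CPM, so the defining genes of both tooth germ tissues were present. Jaw mesenchyme markers were 304, 252 and 299 CPM in wild type and 378, 367 and 378 CPM in Smad7-/-, and macrophage markers (10 of 10) 111, 105 and 148 against 178, 191 and 184 CPM, so both lay higher in every Smad7-/- library. Endothelial markers (10 of 10, 259 to 408 CPM) were highest in Smad7-/- library 3 and wild-type library 3 and lowest in wild-type library 2, the libraries with the highest and the lowest Hoxd8. This match was picked from the marker sums with the values in view, and the order differed elsewhere. Smad7-/- library 2 had 388 CPM of endothelial markers and 1.01 CPM of Hoxd8, and wild-type library 1 had 353 and 1.15 CPM. Red blood cell markers (7 of 10 with counts) were 461, 263 and 337 CPM in wild type and 227, 257 and 205 in Smad7-/-, most of it the globin gene Beta-s. Skeletal muscle markers (10 of 10) were 6.96, 6.47 and 8.21 against 4.44, 6.32 and 5.85, so both sums lay lower in every Smad7-/- library. In each of these 2 lists 5 of 6 tested genes had a negative log2 fold change and 1 a positive one. The positive ones were Epor (0.70 ± 0.21 SE) and Neb (0.29 ± 0.24 SE), the most abundant muscle gene of the list. Dental epithelium markers were 9410, 9190 and 8660 against 8100, 9000 and 7310 CPM, and all 6 had a negative log2 fold change. Neuronal markers (10 of 10) ranged from 279 to 362 CPM and Schwann markers (8 of 8) from 92.4 to 119. In the list for neck organs (5 of 8 with counts, at most 24.4 CPM in a library, most of it Tg, the thyroglobulin gene), the thyroid factor Nkx2-1 and the parathyroid genes Gcm2 and Pth were at 0 in all libraries. In the limb and trunk list (6 of 8 with counts, 4.75 to 7.80 CPM, most of it Nkx2-3), Wt1 and Nkx2-5 were at 0. The part of any of these tissues in the Hox counts was not tested.

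Foxn1, a factor of thymus, hair and nail epithelium in the neck organ list, was picked out with its values in view. Its levels were 4.50, 3.60 and 3.01 CPM in wild type and 3.86, 4.07 and 2.76 CPM in Smad7-/-, lowest in Smad7-/- library 3 and next lowest in wild-type library 3, as for Hoxc13. A list of 10 hair, nail and tongue genes, also drawn up after seeing the values, had 9 genes with counts and summed to 334 to 392 CPM, mostly from Msx2, which the tooth germ itself expresses. The hair keratin gene Krt31 was at 0 in all 6 libraries, while the other keratin genes of the list had counts. Krt75 had 8.17 to 33.1 CPM. Krt84, Krt71, Krt35 and Krt85 had 189, 89, 43 and 17 counts over the 6 libraries together. Of the 7 tested genes of the list, 2 had a positive and 5 a negative log2 fold change, with a median of -0.06, and 0 were called by edgeR or DESeq2.

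**Figure D5:**
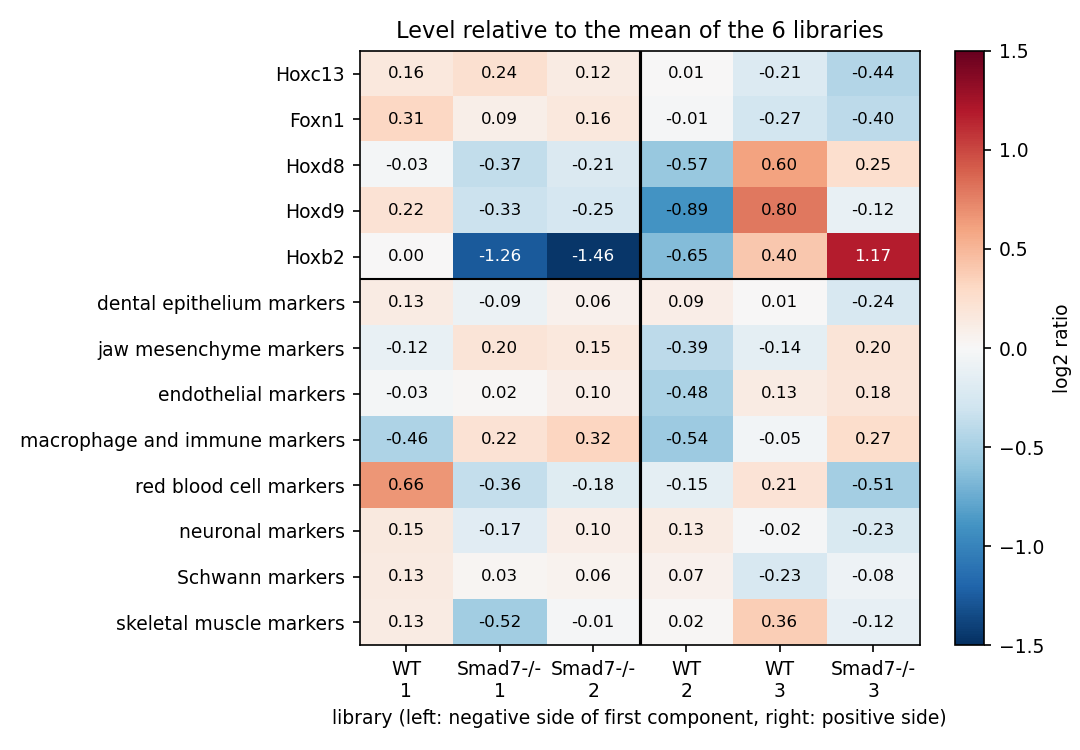
Log2 ratio of each library to the mean of the 6 libraries for 4 Hox genes and Foxn1 (CPM, upper rows) and for summed markers (lower rows); the vertical line parts the 2 sides of the first principal component. Hoxc13 and Foxn1 are lowest in Smad7-/- library 3 (-0.44 and -0.40), where Hoxb2 is highest (1.17).

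The other genes looked up in or beside the clusters were at 0 or had 2 counts in 1 library. Hotair, a long non-coding RNA of the HoxC cluster, the antisense gene Hoxa11as, and the microRNA genes Mir10a, Mir10b, Mir196a-1, Mir196a-2, Mir196b and Mir615 were at 0 in all 6 libraries, although short microRNAs are poorly caught by libraries of this kind. The HoxA transcript Mira had 2 counts in 1 library. Evx2, the homeobox gene that flanks HoxD, was at 0, and Evx1, which flanks HoxA, had 2 counts in 1 library.

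Transcripts of the proteins that act with Hox factors or keep their clusters silent passed no test between genotypes, as was the case for nearly all genes. Over all tested genes edgeR called 0.0262%, and 5.14% had an unadjusted p under 0.05. DESeq2 called 0.351% of genes with an adjusted p. In lists as short as these, 0 calls is near those shares and sets the lists apart from no other genes. Of the 9 cofactor genes of the Pbx, Meis and Pknox families, which bind DNA together with Hox proteins, 0 passed at an adjusted or an unadjusted p under 0.05 in edgeR, 0 were called by DESeq2, and the median log2 fold change was 0.08. Pbx2 had 66.9 ± 4.33 CPM in wild type and 69.1 ± 2.98 in Smad7-/- (SD, n = 3 each). Polycomb proteins keep Hox clusters repressed by marking histones, and of the 19 Polycomb genes 0 passed at either p in edgeR and 0 were called by DESeq2, with a median of 0.02. The most abundant of them were the histone-binding Rbbp4, at 397 ± 39.6 and 372 ± 5.24 CPM, and Rbbp7, at 249 ± 29.2 and 252 ± 7.19 CPM. Trithorax genes maintain Hox expression, and of the 8 of 9 found 0 passed at either p in edgeR and 0 were called by DESeq2, with a median of -0.03. Psip1, which tethers a histone methyltransferase to chromatin, had 164 ± 10.3 and 164 ± 15.3 CPM, and Wdr5, a core subunit of such enzymes, 92.1 ± 6.33 and 93.2 ± 3.69.

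Several regulators that switch Hox genes on along the axis were at or near 0. The caudal genes Cdx1 and Cdx2 were at 0 in all libraries, and Cdx4 and Gbx2 had 12 and 2 counts over the 6 libraries together. Egr2, the hindbrain factor described beside Hoxb2, had 0.638 ± 0.0919 CPM in wild type and 0.561 ± 0.352 in Smad7-/- (SD, n = 3 each), a log2 fold change of -0.16 ± 0.46 (SE) with an adjusted p of 1.00 in edgeR. Retinoic acid induces Hox genes in the hindbrain and trunk, and of 8 genes for its supply, breakdown and receptors 0 passed the adjusted test in edgeR, 5 had an unadjusted p under 0.05 (5.14% of all tested genes did) and 3 were called by DESeq2 (0.351% of all genes were). Those 3 are the enzymes that break it down. Cyp26a1 fell from 631 ± 71.6 to 461 ± 42.9 CPM and Cyp26c1 from 20.4 ± 8.77 to 9.52 ± 2.04 CPM, with DESeq2 adjusted p of 0.0499 and 0.0341. Cyp26b1 rose from 2.17 ± 0.359 to 5.64 ± 1.84 CPM (DESeq2 adjusted p = 0.00201). In edgeR their adjusted p were 0.608, 0.785 and 0.521. Aldh1a3, which makes retinoic acid, had 95.1 ± 13.4 and 131 ± 18.5 CPM, with an adjusted p of 0.659 in edgeR.

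The promoters of Hoxd8 and Hoxd9 are shown because these neighbours had their highest level in the same library, wild-type library 3, and the lowest in the same one, wild-type library 2. For Hoxd9 the counting intervals of these libraries meet. The sequences are from RefSeq (GRCm38.p6), plus strand, 5′ to 3′. That of Hoxd8 is the 250 bases before its start, chr2:74704365-74704614, and that of Hoxd9 is chr2:74697513-74697726, cut at the start that GENCODE gives. Capitals mark the motifs found.
Hoxd8 promoter: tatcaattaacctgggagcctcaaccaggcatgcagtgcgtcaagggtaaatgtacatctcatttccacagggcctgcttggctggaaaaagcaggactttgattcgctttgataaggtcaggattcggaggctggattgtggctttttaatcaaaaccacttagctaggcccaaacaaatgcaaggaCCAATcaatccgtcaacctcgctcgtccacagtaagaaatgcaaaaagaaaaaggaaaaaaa
Hoxd9 promoter: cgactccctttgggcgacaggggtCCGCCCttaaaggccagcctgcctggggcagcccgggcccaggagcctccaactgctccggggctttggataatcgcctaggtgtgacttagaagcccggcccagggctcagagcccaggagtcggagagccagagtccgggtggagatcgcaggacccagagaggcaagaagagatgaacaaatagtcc
Motifs were searched on both strands. The core promoter motifs were TATAAA, known as the TATA box, then CCAAT, and the Sp1 site GGGCGG. The element bound by SMAD proteins was searched as CAGAC. A joint site of Hox and Pbx proteins was searched as TGATNNAT. None of these motifs contains another. The Hoxd8 window held CCAAT, 62 bases before the start, and the Hoxd9 window held GGGCGG on the minus strand, 226 bases before the RefSeq start. The other 3 motifs, CAGAC among them, did not occur in either window. Of all 32851 promoter windows of 250 bases, 12.4% held TATAAA, 33.8% CCAAT, 32.7% GGGCGG, 42.2% CAGAC and 7.68% TGATNNAT. Of the 24 windows of 22 Hox genes in the table, 16.7%, 58.3%, 41.7%, 29.2% and 16.7% held them in the same order. The 250-base window of Hoxd8 had 6 CpG dinucleotides and 44.4% G and C, and that of Hoxd9 had 13 and 65.2%, beside medians of 6 CpG over all windows and 12.5 over the Hox windows.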

How the data were processed

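Tooth germ RNA of 3 wild-type and 3 Smad7-/- samples was sequenced. Per the submitters' processing notes, reads were processed with HISAT2, featureCounts and DESeq2 on mm10, with versions not given. The authors deposited 1 table of raw counts per library, by gene symbol, with no normalization; per the file headers, each column counts reads that HISAT2 aligned from a pair of read data sets.

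All 6 libraries, grouped by the genotype label, were fitted with edgeR 4.0.16 (quasi-likelihood F-test, robust) in R 4.3.3 after filterByExpr (minimum count 10, minimum total 15) and TMM scaling (factors 0.984 to 1.02), with Benjamini-Hochberg adjustment over all 15284 tested genes and a threshold of 0.05. Intervals of log2 fold changes are 1.96 SE to each side, and those of single libraries Poisson at 95% on read pairs, taken as counts divided by 2. DESeq2 1.42.0, limma-voom (limma 3.58.1), other scalings and filters, a replicate block, the side of the first component, each count divided by 2 and leaving out each library were alternatives. The scripts were checked on simulated data. Total counts of 37591888 to 56575476 per library limit the precision of low genes. The reads carry no molecular identifiers, so counting intervals do not cover amplification.

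Named genes were Smad7, the scale genes, each Hox gene that passed the filter or exceeded 3 counts in any library, and the 2 most abundant members of each pathway list with no call. The members and lists were chosen with earlier results of these data known. Positions and lengths came from GENCODE M21 on the mm10 assembly. List genes were matched through RefSeq synonyms where the tables use older symbols, and Kmt2b, Hottip, Hotairm1, Haglr, Haglros, Hoxaas2, Hoxb3os, Hoxb5os and Hbb-bt were not analysed here. Some genes and sequences that these rules select are left out of the text.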

Additional observations from a re-analysis of the deposited data

How the results depend on the processing

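The count of Hox genes called stayed at 0 under every alternative run, including DESeq2, limma-voom, other size factors, no filter, the replicate block and each library left out; with a mean of at least 1 CPM or with each count divided by 2 (chosen after seeing the data) 2 Hox genes were tested. Over all genes, edgeR called 4 and DESeq2 59, and leaving out 1 library gave 1 to 7. Without Smad7-/- replicate 3 it was 7, without replicate 2 it was 1 and without replicate 1 it was 2. Requiring at least 10 counts in every library in place of more than 3 left 2 Hox genes detected, Hoxc13 and Hoxd8, in place of 4. No label says whether replicate numbers pair the libraries. The residual correlations of same-numbered libraries were 0.169, -0.0339 and 0.0927, which cannot decide it with 3 libraries per genotype. With the replicate block, 4 genes and 0 Hox genes were called. Genes at an unadjusted p under 0.05 in edgeR went from 786 to 1210. By construction, the summed Hox difference was -0.00197 CPM with and without the block. That difference ran from -0.302 to 0.247 with 1 library left out, within the SD of 0.480 between libraries. Signs of small log2 fold changes turned, and the cause was not tested. Hoxc13 (0.00403 in edgeR) was -0.000114 in DESeq2, -0.0505 in limma-voom, -0.0104 with the replicate block, -0.159 with the side of the first component as covariate and -0.00158 on counts divided by 2. Hoxb2 was -0.273 in limma-voom and -0.178 with the replicate block. With 1 library left out, Hoxc13 ran from -0.132 to 0.186, Hoxb2 from -1.31 to 0.510, Hoxd9 from -0.754 to 0.00649, Hoxd8 from -0.402 to 0.193 and Dlx2 from -0.238 to 0.0182.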
